A study of Homo sapiens with 6 samples.

Results

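The apolipoprotein L family comprises the genes APOL1 to APOL6, and it was described here by selecting the rows of the deposited count table that carry these 6 symbols, out of 61517 genes. All 6 were found. The libraries came from THP-1, a human monocytic leukaemia cell line, so 1 line stands for all macrophages here. Per the series' design text, the cells of both groups were differentiated into macrophages and driven into pyroptosis, a lytic inflammatory cell death, with lipopolysaccharide (LPS) and ATP. The 3 control libraries had no drug, and the 3 ruxolitinib libraries came from cells also given ruxolitinib, an inhibitor of the kinases JAK1 and JAK2 that the treatment label spells "Lukotinib". The sources used here do not give the differentiating agent, doses or exposure times. Unstimulated cells are not part of the comparison, so the values show no baseline before LPS and ATP.

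The APOL genes arose by duplication on chromosome 22, and their proteins share a membrane-inserting, pore-forming type of domain. APOL1 is the member secreted into blood, where it travels on high-density lipoprotein particles and lyses trypanosomes. The others lack the secretion signal and act inside cells. Interferons induce most of the family through JAK kinases and STAT factors, and macrophages and endothelial cells are among the cells in which this has been described. The comparison asked how ruxolitinib changed the APOL transcripts of stimulated THP-1 macrophages.

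The libraries held 17757595 to 24533979 counts. Levels are in CPM, counts relative to library totals scaled with TMM factors, given as mean ± SD with n = 3 libraries per group. Of 14051 genes high enough to test, 2267 (16.1%) were lower with ruxolitinib and 1908 (13.6%) were higher by edgeR's quasi-likelihood test at an adjusted p under 0.05. Macrophage markers were present, among them CD14, CD68 and CSF1R, and their summed level was 1054 to 1093 CPM in control and 528 to 589 CPM with ruxolitinib, with 8 of 9 tested markers lower and 1 higher. The part of this drop in the APOL values was not tested, and in bulk RNA fewer cells of a type and less RNA per cell cannot be told apart. Of 4 T cell markers, CD3E and CD3D had no count in any library and CD2 had 1 count per group, while the T cell receptor constant gene TRAC had 5.95 ± 0.393 CPM in control and 5.13 ± 0.697 CPM with ruxolitinib (edgeR adjusted p = 0.291). The summed T cell level was 5.604 to 6.38 CPM in control and 4.56 to 5.91 CPM with ruxolitinib. The erythroid gene HBB had no count in any library, and the summed hepatocyte markers were at 0.956 to 1.28 CPM in control and 0.420 to 0.591 CPM with ruxolitinib. The part of these genes in the APOL values was not tested.

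With ruxolitinib the family's summed transcript level was 33.2% of that in control. The summed counts of the 6 genes were 127, 129 and 117 CPM in control replicates 1 to 3 and 42.5, 39.5 and 41.8 CPM in ruxolitinib replicates 1 to 3, so the groups lay far apart. The means were 124 ± 6.61 and 41.3 ± 1.57 CPM (two-sided exact permutation p = 0.1; 3 libraries against 3 allow no smaller value). APOL6 and APOL2 supplied 95.5% to 96.7% of the family's counts in each of the 6 libraries. Of the 6 members, 4 passed the filter on low counts, and these 4 (APOL1, APOL2, APOL3 and APOL6) were lower with an adjusted p under 0.05, against 16.1% of all tested genes. APOL3 passed the filter through its control libraries alone, so its place among the tested members depends on its control level. A fall of at least 1 on the log2 scale at that threshold was found for each of the 4 and for 2.97% of tested genes. Every ruxolitinib library was below every control library for these 4 and for APOL4, which was not tested. The same held for 23.8% of tested genes.

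**Figure D1:**
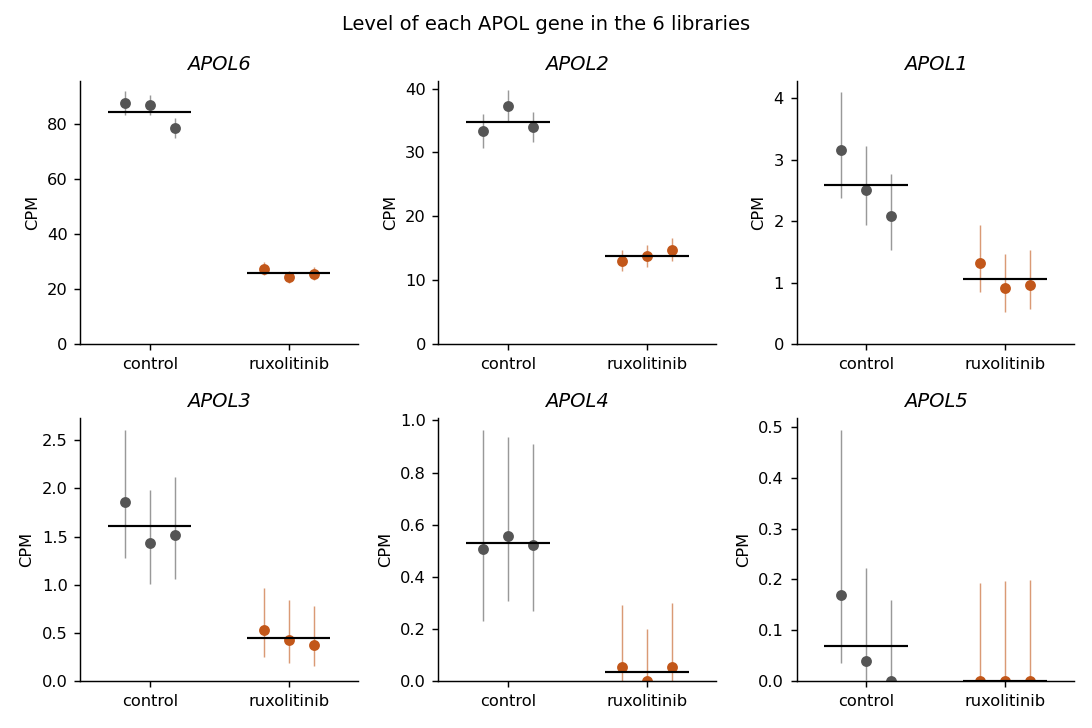
Level of each APOL gene in CPM (linear axes from 0, a different range in each panel) in the 3 control and 3 ruxolitinib libraries, with replicates 1 to 3 from left to right. Points are libraries, thin lines their exact 95% Poisson intervals for counting error only, and horizontal bars the group means. The groups do not overlap for APOL1, APOL2, APOL3, APOL4 and APOL6, and APOL5 is at or near 0 throughout.

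APOL6 (ENSG00000221963) encodes an intracellular member with a region resembling the BH3 motif of the BCL2 family, and it promotes apoptosis when overexpressed. The gene lies on the plus strand of chromosome 22 at 35648395 to 35668409 (GRCh38, GENCODE 29). It was counted 1559, 2187 and 1808 times in control replicates 1 to 3 and 524, 455 and 478 times in ruxolitinib replicates 1 to 3. In CPM these were 87.8, 87.1 and 78.5 against 27.5, 24.4 and 25.7. The lowest control library was far above the highest ruxolitinib library. Mean APOL6 was 84.5 ± 5.17 CPM in control and 25.9 ± 1.57 CPM with the drug, 3.27-fold lower (log2 fold change -1.71 ± 0.07 (SE), edgeR adjusted p = 2.65e-09). Ranked by log2 fold change, APOL6 had the 148th largest fall of the 14051 tested genes. Within batches 1, 2 and 3, which each hold 1 library per group, the log2 ratios were -1.67, -1.84 and -1.61.

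APOL2 (ENSG00000128335) is an intracellular member whose function is little known. It lies on the minus strand at 36226203 to 36239954. Its counts were 591, 936 and 781 in control and 249, 257 and 275 with ruxolitinib, which corresponds to 33.3, 37.3 and 33.9 CPM against 13.1, 13.8 and 14.8 CPM. The libraries of each group stayed close together and the groups did not overlap. The level fell from 34.8 ± 2.15 to 13.9 ± 0.850 CPM (log2 fold change -1.33 ± 0.08, edgeR adjusted p = 1.26e-07), or 2.51-fold. The within-batch log2 ratios were -1.35, -1.44 and -1.20.

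APOL1 (ENSG00000100342), the secreted trypanosome-lytic member, lies on the plus strand at 36253010 to 36267530 and was scarce in these cells. It had 56, 63 and 48 counts in control and 25, 17 and 18 with ruxolitinib. In CPM, control replicate 1 was the highest at 3.15, control replicates 2 and 3 had 2.51 and 2.09, and the ruxolitinib libraries had 1.31, 0.911 and 0.967. The groups did not overlap, but control replicate 3, with an exact 95% Poisson interval of 1.54 to 2.76 CPM, and ruxolitinib replicate 1, with 0.850 to 1.94 CPM, had overlapping intervals. The level fell from 2.58 ± 0.538 to 1.06 ± 0.218 CPM (log2 fold change -1.26 ± 0.25, edgeR adjusted p = 0.00276). The within-batch log2 ratios were -1.26, -1.46 and -1.11.

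APOL3 (ENSG00000128284) encodes a cytosolic protein that dissolves the membranes of bacteria inside interferon-gamma-activated cells, acting together with guanylate-binding proteins. It lies on the minus strand at 36140330 to 36166177. Its counts were 33, 36 and 35 in control and 10, 8 and 7 with ruxolitinib, or 1.86, 1.43 and 1.52 CPM against 0.525, 0.429 and 0.376 CPM. Each ruxolitinib library was below each control library. Mean APOL3 was 1.605 ± 0.224 CPM in control and 0.443 ± 0.0757 CPM with the drug (log2 fold change -1.83 ± 0.30, edgeR adjusted p = 6.18e-04). With so few counts its SE was more than that of any other tested member, so its place as the member with the largest fitted fall is uncertain.

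APOL4 (ENSG00000100336), a member of little known function on the minus strand at 36189124 to 36204840, missed the filter, which asked for 0.522 CPM in 3 libraries. It had 9, 14 and 12 counts in control and 1, 0 and 1 with ruxolitinib. The 3 control libraries were alike at 0.507, 0.558 and 0.521 CPM, and every ruxolitinib library was at or below 0.0537 CPM. The 35 counts in control and 2 with ruxolitinib gave a depth-adjusted ratio of 14.965 between groups, with an exact 95% interval of 3.84 to 128 that covers counting error only. With no filter on low counts, APOL4 had a log2 fold change of -3.69 ± 0.83 (edgeR adjusted p = 1.36e-04). That setting also gave the tested members smaller p-values, such as an edgeR adjusted p of 2.94e-134 for APOL6 at a log2 fold change of -1.71. In leave-out fits where APOL4 passed the filter, its edgeR adjusted p was 0.00413 to 0.0183. There it passed through its control libraries alone. DESeq2 gave it an unadjusted p = 0.00323 and no adjusted p.

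APOL5 (ENSG00000128313), on the plus strand at 35717872 to 35729483, was barely detected. It had 3, 1 and 0 counts in control and no count in the 3 ruxolitinib libraries. A count of 0 allows up to 0.158 to 0.161 CPM in a ruxolitinib library, taking 3 counts as the upper limit, and the exact two-sided 95% Poisson intervals of the same libraries reach 0.194 to 0.198 CPM, so a difference was not detectable at this depth and no fold is given.

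**Figure D2:**
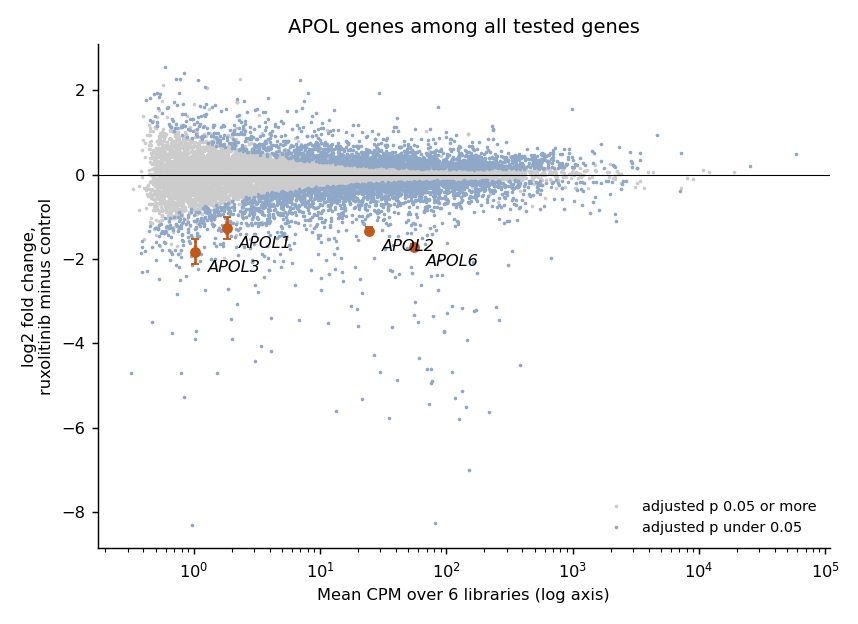
The log2 fold change (ruxolitinib minus control) of the 14051 tested genes against their mean CPM over 6 libraries (log axis). The 4 tested APOL genes are marked with their SE; APOL6 and APOL2 lie among well expressed genes at -1.71 and -1.33, and APOL1 and APOL3 near the low end at -1.26 and -1.83, with longer error bars.

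Levels were compared between members only per kilobase of merged exon length, in CPM per kilobase. In control the order was APOL2 at 9.9998 ± 0.617, APOL6 at 8.35 ± 0.511, APOL1 at 0.734 ± 0.153, APOL3 at 0.272 ± 0.0380, APOL4 at 0.121 ± 0.00599 and APOL5 at 0.0484 ± 0.0614. Neighbours in this order did not overlap between libraries, except APOL4 and APOL5, whose libraries ranged from 0.116 to 0.127 and from 0 to 0.118. With ruxolitinib the order of the means was the same, from APOL2 at 3.98 ± 0.244 and APOL6 at 2.55 ± 0.155 down to APOL4 at 0.00809 ± 0.00701 and APOL5 with no count. APOL4 had 2 counts there and neither gene had a count in ruxolitinib replicate 2, so the order of APOL4 and APOL5 is uncertain. Per longest transcript APOL2 also led in control, with 56.8% ± 2.35 of the family against 36.6% ± 1.14 for APOL6. Only per coding length did APOL6 lead, with 73.3% ± 0.901 in control against 23.1% ± 1.38 for APOL2. APOL6 has 10121 exonic bases but 1029 coding bases, and coding length leaves out the other exonic bases, from which counts can also come.

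No member's share of the family could pass the test of a difference between groups, since 3 libraries against 3 allow no p below 0.1. The shares are therefore a description. Per merged exon length, APOL6 made up 44.1%, 42.2% and 42.0% of the family in control replicates 1 to 3 and 39.1%, 36.0% and 35.6% with ruxolitinib. APOL2 made up 48.6%, 52.4% and 52.7% in control and 54.0%, 59.1% and 59.5% with ruxolitinib. The groups did not overlap for either gene: the APOL6 share was lower by 5.85 percentage points and the APOL2 share higher by 6.29 (exact two-sided permutation p = 0.1 for each, adjusted p = 0.2 over 6 members). The APOL4 groups did not overlap either, at 0.619% ± 0.0284 in control and 0.115% ± 0.0996 with ruxolitinib (exact permutation p = 0.1, adjusted p = 0.2). Its share with ruxolitinib rests on 2 counts. APOL1 made up 3.75% ± 0.710 in control and 4.36% ± 0.872 with ruxolitinib, with overlapping groups (exact permutation p = 0.5, ignoring batch). Within batches its share was higher with ruxolitinib each time, 5.37% against 4.56%, 3.87% against 3.49% and 3.85% against 3.21%.

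Ratios between 2 members within a library need no scaling factor and show whether they fell by different amounts. Of 6 pairs of tested members, 3 had groups that did not overlap. The pairs share members, so they are not independent, and the same share over pairs of other genes was not computed. The log2 ratio of APOL2 to APOL6 counts was -1.40, -1.22 and -1.21 in control and -1.07, -0.82 and -0.80 with ruxolitinib, and it was higher with ruxolitinib in each of the 3 batches. The difference was 0.38 ± 0.11 (SE). The log2 ratio of APOL1 to APOL6 was 0.45 ± 0.17 higher with ruxolitinib, and that of APOL1 to APOL3 0.54 ± 0.14 higher. The SE of each ratio comes from the spread of the libraries, which can fall below counting error at low counts. For APOL3 with ruxolitinib the SD was 17.1% of the mean, where counting alone gives 34.6%. The edgeR SEs of APOL1 and APOL3 alone, 0.25 and 0.30, exceed 0.14. Ratios with APOL1 or APOL3 may therefore be less certain than their SEs show. Each of the 3 separated ratios had an exact two-sided permutation p = 0.1 and an adjusted p = 0.2 over the 6 pairs. None passed a threshold that this number of libraries cannot reach. APOL2 to APOL3 differed by 0.47 ± 0.24 with overlapping groups (exact permutation p = 0.2), and by 0.43, 0.24 and 0.74 within batches 1 to 3. APOL1 against APOL2 (0.07 ± 0.28) and APOL3 against APOL6 (-0.09 ± 0.15) had overlapping groups (exact permutation p = 0.6 for each). Within batches 1 to 3 the first differed by 0.098, 0.0033 and 0.11 and the second by -0.10, 0.16 and -0.32. Their direction turned when single libraries were left out: to -0.05 and -0.13 for the first pair without control replicate 3 and without ruxolitinib replicate 1, and to 0.01 for the second without ruxolitinib replicate 3.

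**Figure D3:**
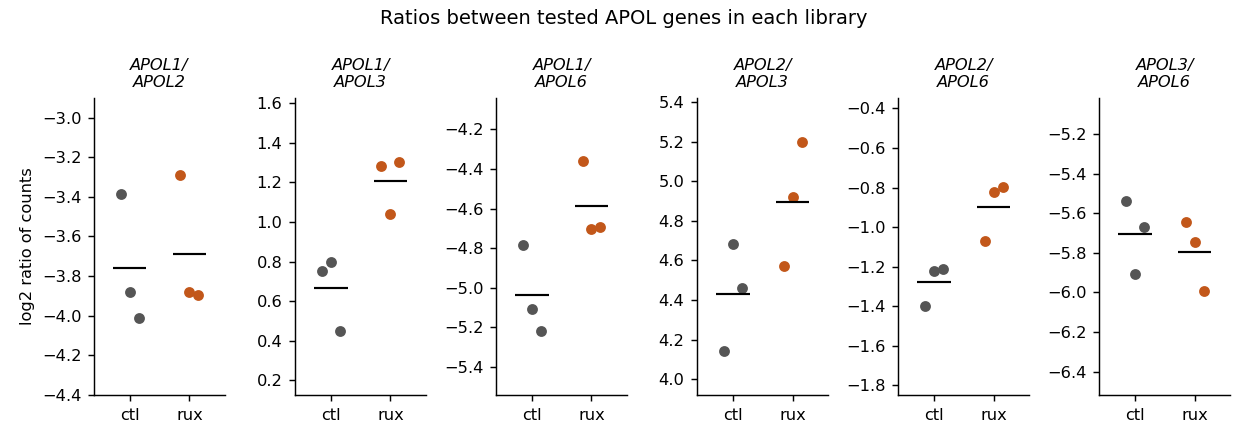
The log2 ratio of counts (0.5 added) between each pair of the 4 tested APOL genes in each library; ctl is control, rux is ruxolitinib, points are replicates 1 to 3 from left to right and bars group means. Each axis spans the same range of 1.5 on the log2 scale. The groups separate for APOL1/APOL3, APOL1/APOL6 and APOL2/APOL6 and overlap for the other pairs.

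The 6 genes span 619 kb in 2 clusters, APOL6 with APOL5 (81.1 kb) and APOL3, APOL4, APOL2 and APOL1 (127 kb), separated by 411 kb that hold the splicing factor gene RBFOX2. No annotated gene in GENCODE 29 overlaps a member, and no stretch of 100 bases in a member's transcripts occurs in transcripts of another gene. At 50 bases, up to 3.94% of a member's windows (APOL1) occur elsewhere. The sources used here do not state the read length. Within 1 Mb of the span 21 other genes were tested, of which 5 fell, 2 rose and 14 missed the threshold (median log2 fold change -0.22, against -0.01 over all tested genes). These counts lie near the shares over all tested genes, 16.1% lower and 13.6% higher. The nearest tested gene to APOL6 was MB, which encodes the oxygen-binding protein myoglobin, 10.4 kb away on the opposite strand. It fell from 4.29 ± 0.240 to 1.28 ± 0.460 CPM (log2 fold change -1.74 ± 0.24, edgeR adjusted p = 1.70e-04), a size close to that of APOL6. The other nearest tested genes missed the threshold. RBFOX2, 9.25 kb from APOL5, had 0.12 ± 0.07 (adjusted p = 0.198). MYH9, the non-muscle myosin heavy chain gene 13.7 kb from APOL1, had -0.22 ± 0.11 (adjusted p = 0.176), but an adjusted p of 0.0456 by DESeq2 and 0.0243 without control replicate 1. With no filter on low counts, where the p-values of the tested APOL genes also ran lower, MYH9 had an adjusted p of 6.88e-04. RASD2, 94.4 kb before APOL6, had -0.68 ± 0.31 (adjusted p = 0.118, but 0.0212 with ruxolitinib replicate 3 left out and 0.0406 with both batch 3 libraries left out), and TXN2, 200 kb beyond APOL1, had 0.05 ± 0.07 (adjusted p = 0.651). Farther away, CSF2RB, a beta chain of cytokine receptors such as that for GM-CSF, fell by 1.68 ± 0.11 on the log2 scale, the NADPH oxidase subunit gene NCF4 by 0.92 ± 0.09 and the haem oxygenase gene HMOX1 by 0.67 ± 0.04. The 2 that rose were EIF3D and SSTR3, named after their values were seen. EIF3D (log2 fold change 0.16) lost its call with the batch as a block (adjusted p = 0.103), with batch 1 (0.221) or batch 2 (0.0691) left out, and when control replicate 1 (0.0934) or 2 (0.0971) or ruxolitinib replicate 1 (0.0733) or 2 (0.0511) was left out. SSTR3 (1.77) had 12 counts in control and 36 with ruxolitinib and passed the filter through its ruxolitinib libraries alone, so its call depends on its level there. It lost its call without ruxolitinib replicate 3 (0.0586) or both batch 3 libraries (0.107). TST, among the 5 that fell and also named after its values were seen, lost its call without both batch 1 libraries (0.0534).

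**Figure D4:**
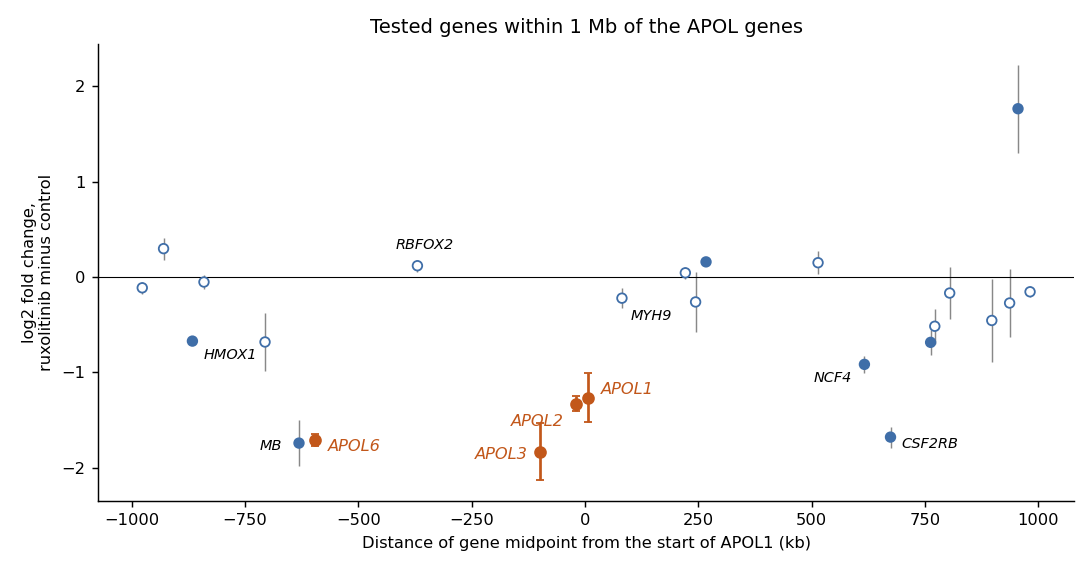
The log2 fold change of tested genes within 1 Mb of the APOL genes, with SE, against the distance of the gene's midpoint from the start of APOL1 in kb. Orange points are the 4 tested APOL genes, filled blue points neighbours with an adjusted p under 0.05 and open points the others; APOL6 and its neighbour MB fell alike, while RBFOX2 and MYH9 lie near 0.

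In the list of receptors, kinases and factors that carry interferon signals to responsive promoters, the large falls were among the factors and in USP18. The log2 fold changes of the tested receptors and kinases ran from -0.28 (JAK2) to 0.34 (TYK2). The factor gene IRF8 rose by 0.76 ± 0.09 (edgeR adjusted p = 3.47e-05). Among 17 tested genes of this list, 11 fell, 2 rose and 4 missed the threshold (median log2 fold change -0.24). Over all tested genes, 16.1% were lower and 13.6% higher. IRF9, the DNA-binding subunit of the interferon-activated factor ISGF3, fell from 61.4 ± 0.223 to 12.6 ± 1.01 CPM (-2.29 ± 0.07). STAT2, also a subunit of ISGF3, fell from 127 ± 4.36 to 57.7 ± 7.27 CPM (-1.14 ± 0.08). USP18, which dampens interferon receptor signalling, fell by 5.33 ± 0.18. IRF1, the interferon-gamma-induced transcription factor, fell from 43.1 ± 1.11 to 32.1 ± 0.385 CPM (-0.42 ± 0.06), less than any of the 4 tested APOL genes. With batch 1 or batch 3 left out, 7 of the list were lower. Only 1 was higher when control replicate 3, batch 1, or the first or second ruxolitinib library was left out.

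Beside other interferon-induced effector genes, the APOL falls were modest. Of 24 tested effectors, 23 fell and 1 rose (median log2 fold change -4.57), beside 16.1% lower and 13.6% higher over all tested genes. For 21 of the 24 the fall was larger than that of any of the 4 tested APOL genes, and this order is a description without a test. IFI44L and IFI44, interferon-induced genes, fell, with log2 fold changes of -8.27 ± 0.09 and -5.14 ± 0.07. So did the RNA-binding IFIT3 (-5.52 ± 0.07) and OAS3, which makes the activator of RNase L (-4.52 ± 0.06). IFI44L had 29 counts in all with ruxolitinib and passed the filter through its control libraries alone, as did some other effectors. The 3 on the other side of the APOL genes, named after their values were seen, were the antigen-processing genes PSMB9 (-0.98) and TAP1 (-0.87) and the tRNA synthetase gene WARS1, which rose by 0.20 (adjusted p = 0.0113, but 0.0532 with the batch as a block and 0.138 without both batch 1 libraries).

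**Figure D5:**
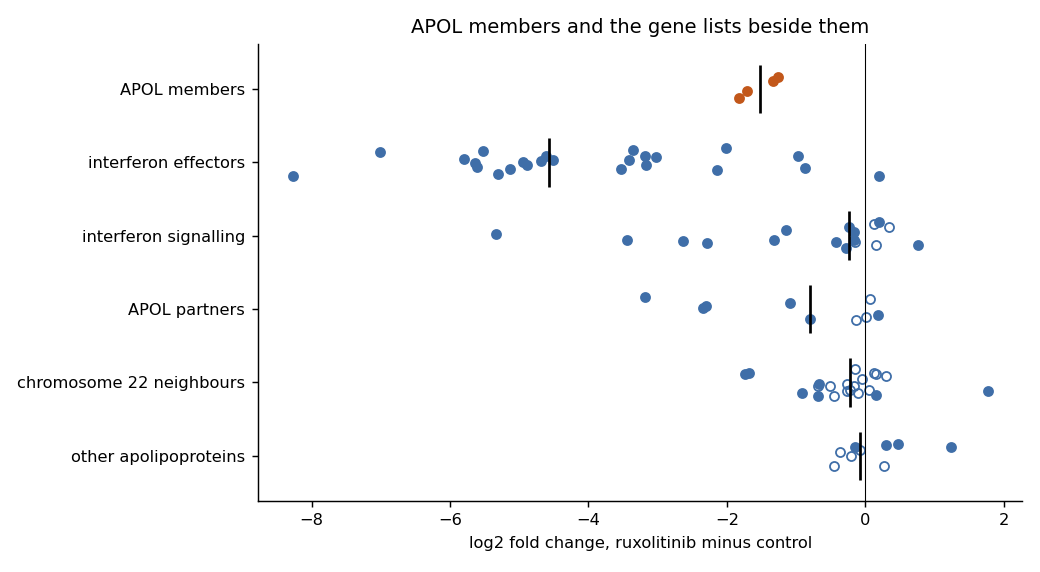
The log2 fold change (ruxolitinib minus control) of the 4 tested APOL members and of the tested genes of 5 lists; filled points have an adjusted p under 0.05, open points do not, and vertical bars are medians. The APOL members lie between -1.83 and -1.26, while the interferon effectors have a median of -4.57 and the other apolipoproteins one of -0.08.

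Among genes whose proteins work with APOL1 or APOL3, the guanylate-binding protein genes fell. Of 12 such genes 9 were tested, with 5 lower, 1 higher and 3 short of the threshold (median -0.80). The shares over all tested genes were 16.1% lower and 13.6% higher. The GBP genes, whose products coat bacteria that APOL3 attacks, made up 4 of the 5 falls. GBP1 fell from 35.2 ± 1.24 to 3.87 ± 0.547 CPM (-3.18 ± 0.10), with GBP4 at -2.35 ± 0.11 and GBP3 at -2.30 ± 0.11. GBP2 had -0.80 ± 0.12, a smaller fall than that of any tested APOL gene. The other was the integrin gene ITGB3, which fell from 497 ± 18.03 to 235 ± 16.1 CPM (-1.08 ± 0.06). PI4KB, the Golgi lipid kinase, and NCS1, a calcium sensor that regulates it, had log2 fold changes of 0.01 and -0.13 (adjusted p = 0.922 and 0.293). HPR, the haptoglobin-related partner of APOL1 in the trypanosome lytic particle, had no count in any library, which allows up to 0.120 to 0.169 CPM per library. The rise was that of the integrin gene ITGAV (adjusted p = 0.0127), which was lost with the batch as a block (adjusted p = 0.0683) and with batch 1 left out (0.0921). Without both libraries of batch 2, PLAUR also passed (adjusted p = 0.0318), and 2 were higher.

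Genes listed with the apolipoproteins that share no or only distant sequence with APOL1 to APOL6 were taken from the same fit. Of 19 listed, 9 were tested, with 1 lower, 3 higher and 5 short of the threshold (median -0.08), beside 16.1% lower and 13.6% higher over all tested genes. With batch 1 or batch 3 left out, 2 were higher. APOE, the lipid carrier, rose from 1.41 ± 0.398 to 3.36 ± 0.260 CPM (log2 fold change 1.24 ± 0.23, edgeR adjusted p = 0.00147). APOC1, which modulates lipid transfer, rose by 0.47 ± 0.11, a call lost without both batch 3 libraries (adjusted p = 0.0844). The mitochondrial cristae gene APOO rose by 0.30 ± 0.07, a call lost without both batch 1 libraries (adjusted p = 0.132). APOC2, the activator of lipoprotein lipase, fell by 0.16 ± 0.05 (adjusted p = 0.0312), a call lost without control replicate 1 or 3 or ruxolitinib replicate 1 or 2 (adjusted p = 0.237, 0.140, 0.143 and 0.0563), with batch 1 or 3 left out (0.405 and 0.0837), with the batch as a block (0.108), with median-ratio or upper-quartile scaling (0.0738 and 0.0876) and by DESeq2 (0.111). APOLD1, a distant relative of the APOL genes on another chromosome, averaged 1.59 CPM in control against 1.90 CPM (log2 fold change 0.27, edgeR adjusted p = 0.400).

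The genes whose log2 CPM followed each tested member most closely over the 6 libraries were picked as a description. The libraries fall into 2 groups, so any gene with a treatment difference correlates, and genes in 1 library share its depth. For APOL6 they were the interferon-induced exonuclease gene ISG20 (Pearson correlation 0.999, log2 fold change -1.58), HMOX1 (0.999, -0.67) and TANC2 (0.998, -0.64). For APOL2 they were CORO2A, FAM76B and GSAP, for APOL3 TMEM255A, STOM and KLF10, and for APOL1 KLF11, CHCHD10 and SMARCD1. Among the 4 tested members the correlations ran from 0.915 (APOL1 with APOL2) to 0.9898 (APOL2 with APOL6).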

How the data were processed

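The deposited table gives raw counts, whole numbers for each gene, for 6 libraries of oligo-dT-selected mRNA (per the labels' protocols), with symbols beside Ensembl identifiers. The genome build was hg38, per the submitters' processing notes; the sources used here do not give the aligner, counting program, annotation release or strandedness. Coordinates and lengths came from GENCODE 29 (GRCh38), which held 58340 of the identifiers. Differential expression was computed with edgeR 4.0.16 in R 4.3.3 (quasi-likelihood test, robust, TMM scaling, filterByExpr with a minimum count of 10 and total of 15), adjusted by Benjamini-Hochberg over 14051 genes with a threshold of 0.05, and the procedure was tested on simulated data. Standard errors came from the coefficient and its F statistic. Alternatives included DESeq2 1.42.0, limma-voom (limma 3.58.1), other scalings and filters, and libraries left out. Single values were compared by exact permutation over libraries (SciPy 1.17.1).

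Per the labels, batches 1 to 3 each hold 1 library of either group, which pairs them. Deviations of same-numbered libraries correlated at -0.02, -0.19 and -0.10 over genes, so the pairing rests on the label. The labels do not say whether the libraries are separate cultures, and the p-values rest on library-to-library variation that may be technical. The members and lists were chosen with earlier results of these data known. All 6 members were named, with up to 4 genes per list by smallest adjusted p (plus STAT2, IRF9 and IRF1), the nearest tested neighbours and 3 genes per member by correlation. Others were added after their values were seen: TAP1, PSMB9, WARS1, EIF3D, SSTR3, PI4KB, NCS1, HPR, ITGAV, PLAUR, TST, TRAC, APOLD1, JAK2, TYK2, IRF8 and GBP2. Some genes that the rule or the marker lists would name are not reported here.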

Additional observations from a re-analysis of the deposited data

How the results depend on the processing

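The 4 falls of APOL1, APOL2, APOL3 and APOL6 kept their direction and stayed past the threshold in all 17 alternatives, with log2 fold changes of -1.44 to -1.10, -1.40 to -1.27, -1.97 to -1.71 and -1.75 to -1.64 and adjusted p up to 0.0244, 2.75e-05, 0.0133 and 8.36e-07. With the batch as a replicate block they were -1.27, -1.33, -1.84 and -1.71, and the block changed no call of a member. The count of members lower was 4 to 5, since APOL4 was also called in some alternatives. In those with a filter it passed through its control libraries alone, so its call depends on its control level. Scaling moved the median of all genes by -0.0356 to 0.0353 (log2). Depth limits APOL4 and APOL5, which had 35 and 4 counts in control.

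Leaving out libraries gave 840 to 2553 genes higher and 1143 to 2481 lower. The lowest of these, 840 and 1143, came without both libraries of batch 1. In the lists it gave 7 to 12 lower and 1 to 3 higher (interferon signalling), 0 to 2 higher (partners), 0 to 1 higher (effectors), 1 to 2 higher (neighbours) and 0 to 1 lower (other apolipoproteins). With the batch as a replicate block, 0 partners, 0 effectors, 1 neighbour and 1 signalling gene were higher and 0 other apolipoproteins lower. Library totals alone left 1 signalling gene higher, the filter of at least 1 CPM in 3 libraries left 1 neighbour higher, and median-ratio scaling, upper-quartile scaling and DESeq2 left 0 other apolipoproteins lower. The APOL4 share differed by -0.504 percentage points per merged exon length and by -0.359 per longest coding length. Leaving out single libraries gave -0.13 to 0.26 for APOL1/APOL2, including -0.05, and -0.19 to 0.0125 for APOL3/APOL6. The causes were not tested, beyond the fewer samples or genes that some alternatives hold.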

Other observations

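The spread of the low members between libraries can be set beside counting error alone. In control, APOL4 had a coefficient of variation of 4.96% over 3 libraries, where counting alone gives 29.3% at its mean count, and APOL3 had 14.0% against 17.0%. APOL6 had 6.12% against 2.32%. The SD of APOL4 over 3 libraries is therefore smaller than its counting error, and the exact interval of its ratio is the wider measure.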
